A study of Mus musculus with 64 samples.

Results

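The mitochondrial respiratory chain and ATP synthase are built from proteins of both the nuclear and the mitochondrial genome. The nuclear part is described here across mouse hearts sampled around the day. Members were the protein-coding nuclear genes whose symbol starts with Nduf, Uqcr, Atp5 or Cox and a digit, or is one of Sdha to Sdhd with their assembly factors, and whose mean CPM (counts scaled to the library's total on genes) was 1 or more over all libraries. The annotation held 107 such genes, 106 had a row in the count table, and 103 passed the CPM threshold. All 103 entered the tests, among 16417 genes tested of 48795 gene rows. By the role of their products, 80 were structural subunits and 21 were assembly factors, and the remaining members were the supercomplex factor Cox7a2l and the paralog Ndufa4l2. The members nearest above the threshold were Cox16 (mean 1.40 CPM), Cox6b2 (1.90 CPM) and Sdhaf1 (3.40 CPM). The genes under it were Cox8c (0 CPM), Cox7b2 (0.0211 CPM) and Cox20 (0.278 CPM, with 91.1% of its exon bases overlapped by Hnrnpu on the other strand).

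Bulk RNA was sequenced from both ventricles of male C57BL/6 mice. One genotype, CEK, lacked E4BP4 in cardiomyocytes, and CON were its littermates. E4BP4 is the repressor encoded by Nfil3, and it binds the D-box sequences that the PAR bZIP activators bind too. The hearts were sampled at 8 zeitgeber times (ZT), every 3 h from ZT0 to ZT21, with 4 biological replicates in each of 16 groups, 64 libraries in all. The labels do not give the driver of the deletion, the alleles of the controls or the age of the mice, and nothing beyond the replicate labels states that each library was 1 heart.

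Electrons from NADH enter the chain at complex I, and those from succinate at complex II, which is also an enzyme of the citric acid cycle. Coenzyme Q carries them to complex III and cytochrome c to complex IV, which reduces oxygen, and complexes I, III and IV pump protons. Complex V, the ATP synthase, uses the proton gradient to make ATP. Complex II is encoded in the nucleus alone, and the other complexes join nuclear with mitochondrial subunits with the help of assembly factors that do not stay in the finished enzyme. The heart has one of the highest mitochondrial contents of any organ, and it uses muscle isoforms of several complex IV subunits in place of those found in most tissues.

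Libraries held 7.71 M to 45.6 M counts on genes (median 26.7 M), and the members took 2.84 to 7.62% of them (median 4.69%). Nfil3 fell in CEK from a median of 16.2 to 1.73 CPM, a log2 fold change of -3.00 ± 0.067 (SE), with an edgeR adjusted p = 3.35e-39, and the ranges did not overlap (4.90 to 31.8 against 0.506 to 4.75 CPM). Cardiomyocyte markers were abundant in both genotypes: the 8 genes of the list summed to a median of 64301 CPM in CON and 61724 CPM in CEK. On the first principal component of all genes, which held 27.6% of the variance, 3 libraries stood apart: replicate 4 of CEK at ZT0, replicate 3 of CON at ZT18 and replicate 1 of CEK at ZT18. For the members that passed a test, results are given with and without them. The other gene lists, the cell type markers and most isoform shares are given with all 64 libraries only. Atrial marker sums ran from 153 to 4459 CPM in CON and from 168 to 2419 CPM in CEK.

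In complexes I, II and IV the median structural subunit stood far above the median assembly factor. Complex III had no assembly factor among the members, and complex V had only Atp5s. Levels between genes were compared as mean CPM per kilobase (kb) of the principal transcript over the 64 libraries, with no test. The median structural subunit was at 303 CPM per kb in complex I (n = 36 genes), 492 in complex II (n = 4), 612 in complex III (n = 8), 589 in complex IV (n = 16) and 715 in complex V (n = 16). The median assembly factor was at 20.1 CPM per kb for complex I (n = 8), 10.5 for complex II (n = 4) and 8.83 for complex IV (n = 8).

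**Figure D1:**
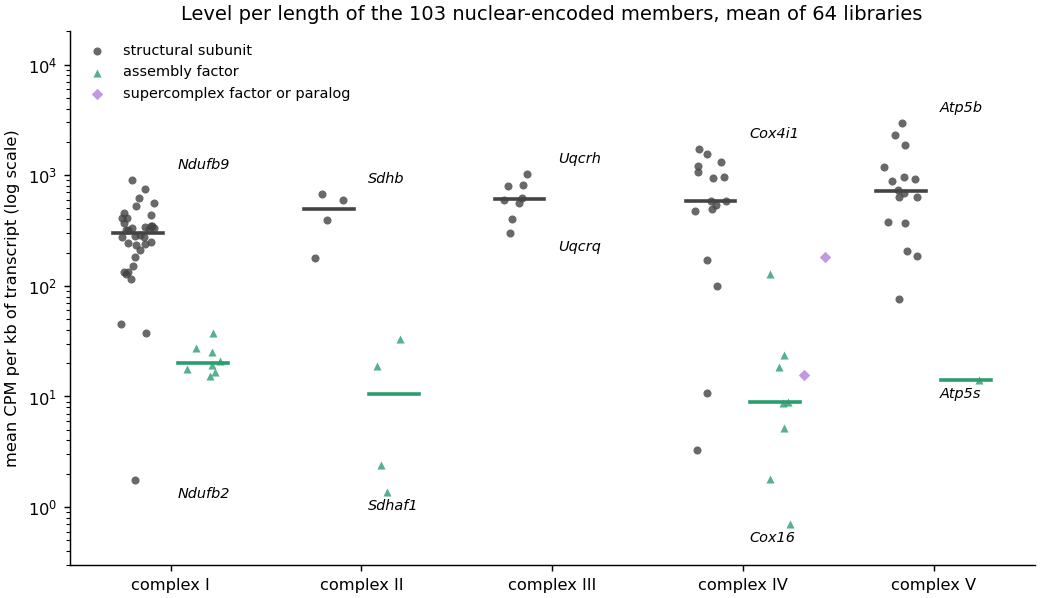
Mean CPM per kb of transcript (log scale) of each of the 103 members by complex, over 64 libraries. Circles are structural subunits, triangles assembly factors and diamonds the supercomplex factor and the paralog, and bars are medians. Structural medians lie between 303 and 715 CPM per kb and the highest and lowest members of each complex are named.

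In complex I the highest member was Ndufb9, an accessory subunit, at 910 CPM per kb. The lowest was Ndufb2, another accessory subunit, at 1.76 CPM per kb. The principal transcript of Ndufb2 in the annotation is 4371 bases long, and genes on either strand overlap 7.94% of its exon bases, so its level per length is uncertain. In complex II Sdhb, the iron-sulfur subunit, was highest at 682 CPM per kb. Sdha, the flavoprotein that oxidises succinate, was at 595 CPM per kb. The membrane anchors Sdhd and Sdhc were at 390 and 177 CPM per kb. The lowest member of complex II was the assembly factor Sdhaf1 at 1.36 CPM per kb. In complex III Uqcrh, the hinge protein at the cytochrome c side, was highest at 1019 CPM per kb and Uqcrq was lowest at 298 CPM per kb. Complex IV ran from Cox4i1 at 1733 CPM per kb to the assembly factor Cox16 at 0.700 CPM per kb, 56.8% of whose exon bases lie in the overlapping gene model Gm20498. The highest member of all was Atp5b, the catalytic beta subunit of complex V, at 2966 CPM per kb. Atp5g3, 1 of 3 genes for the same membrane-ring subunit c, was at 2308 CPM per kb, and the alpha subunit Atp5a1 was at 1875 CPM per kb. The lowest member assigned to complex V was Atp5s, coupling factor B, at 14.1 CPM per kb.

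Muscle isoforms took the larger share of the pairs Cox6a2 and Cox6a1, Cox8b and Cox8a, and Cox7a1 and Cox7a2, and the widely expressed form took nearly all of the other complex IV pairs. Cox6a2, the heart and skeletal muscle form, took 94.2 ± 0.683% (SD, n = 32 libraries) of the summed level per kb of Cox6a2 and the widely expressed Cox6a1 in CON. In CEK its share was 93.7 ± 0.696% (n = 32), with a lower group mean at 7 of 8 times. Cox8b took 84.2 ± 3.09% over Cox8a in CON and 83.8 ± 3.49% in CEK, with a lower group mean in CEK at 5 of 8 times. Cox4i1 took 99.4% over Cox4i2, an isoform known from lung, in both genotypes. Cox6b1 took 99.6% over Cox6b2, an isoform known from testis, in both. Ndufa4, which is a complex IV subunit despite its name, took 98.8% over its paralog Ndufa4l2 in both.

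Cox7a1, the heart and skeletal muscle form of subunit VIIa, had a lower share in CEK. Its share over Cox7a2 was 72.4 ± 2.89% in CON, with a lowest library of 62.1% and a highest of 77.9%. In CEK it was 68.7 ± 3.53%, with a lowest of 57.6% and a highest of 73.4%. The ranges overlapped. The group mean was lower in CEK at 8 of 8 times, by 1.73 to 5.86 percentage points. Without the 3 libraries that stood apart the shares were 72.3 ± 2.76% and 68.6 ± 3.52%. No p is given for a share, since the pairs were looked at together and their difference was not among the planned tests. By itself Cox7a1 did not pass in the edgeR fit without covariates. Its log2 fold change was -0.21 ± 0.135 (95% interval -0.48 to 0.06, adjusted p = 0.379), from a median of 522 CPM in CON to 455 CPM in CEK. Without the 3 libraries it was -0.26 ± 0.113 (adjusted p = 0.141). It passed with the first principal component of the genes outside the members as a covariate (-0.30 ± 0.071, adjusted p = 0.00103). That alternative was chosen after the data were seen.

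The members rose and fell together from library to library, within groups as well as between them. Their first principal component held 86.6% of their variance over the 64 libraries. The median correlation between 2 members, taken on deviations from the group means, was 0.876, which is a description of values that share libraries and depth. The spread within groups had a median SD of 0.38 log2 CPM over members against 0.26 over all genes tested. It ran from 0.093 for Sdha to 0.68 for Atp5k, a small membrane subunit of complex V. In the 3 libraries that stood apart the median member was 1.06 higher (log2 CPM) than in the other libraries, against -0.06 for all genes tested. There 95 members were higher and 8 were lower: Ndufs1, Sdha, Uqcrc2, Atp5s, Cox11, Cox15, Cox16 and Cox18.

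The spread followed transcript length. Across the 103 members, Spearman's rho of transcript length was -0.66 with the SD within groups and -0.68 with the loading on the members' first component. The 54 members under 1000 bases had a median SD of 0.42 log2 CPM and were 1.2 higher in the 3 libraries. The 12 members of 2500 bases or more had a median SD of 0.20 and were 0.32 higher there. Other genes showed the same order: 753 genes under 1000 bases were 0.88 higher in the 3 libraries and 8692 genes of 2500 bases or more differed by -0.26. The median principal transcript was 955 bases among members and 3025 bases among all genes tested that had one. What set the 3 libraries apart was not tested.

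**Figure D2:**
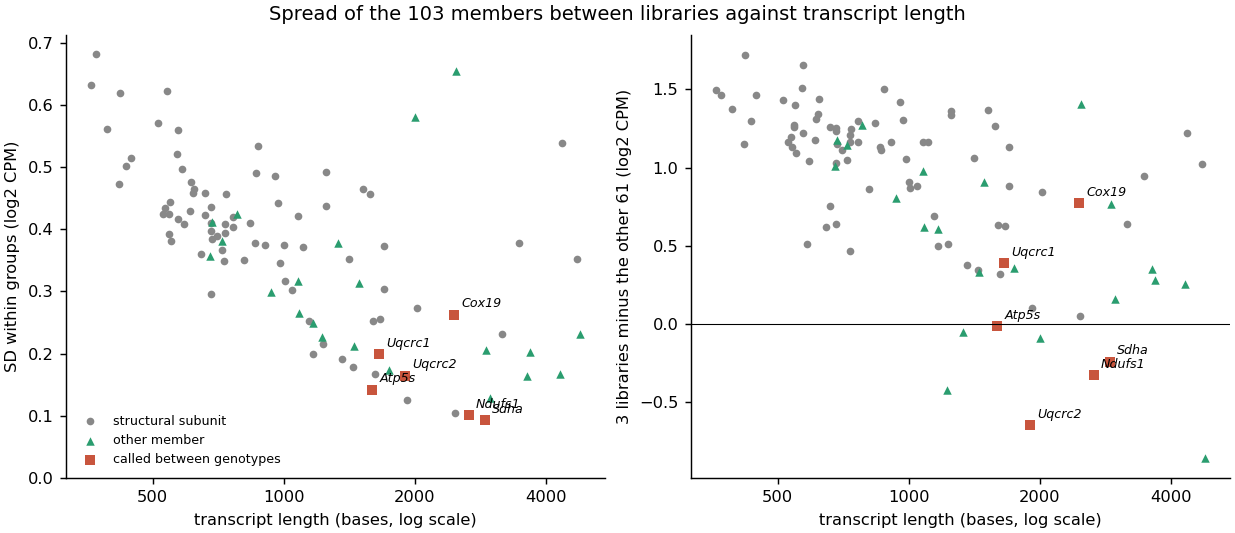
Left, SD within groups (log2 CPM) of each member against transcript length (log scale). Right, the difference between the 3 libraries that stood apart and the other libraries (log2 CPM). Squares mark the 6 members that passed the genotype test, which have SDs of at most 0.263 and transcripts of 1599 bases or more.

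Few members passed the genotype test, and the log2 fold changes of all members ran from -0.21 to 0.27. In the comparison of CEK with CON averaged over the 8 times, 6 of 103 members passed an edgeR adjusted p of 0.05, 1 higher and 5 lower in CEK. Among all genes tested 12% passed, 6.69% higher and 5.3% lower. Among members the share was 5.83%, a smaller share than among all genes. The spread within groups was wider among members (median SD 0.38 against 0.26 log2 CPM), and these shares make no allowance for it. At an unadjusted p under 0.05 there were 10 members. Over all members the median log2 fold change was 0.01, against 0.00 for all genes tested, with 58 members above and 45 below 0. The 95% interval lay within 0.5 log2 of 0 for all 103 members and within 0.25 for 65 of them, so larger differences than these are outside the intervals. In bulk tissue fewer cells of a type and less RNA per cell cannot be told apart.

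All calls fell on members with a small spread. None of the 54 members under 1000 bases passed in edgeR (by the same test 4 of 37 members between 1000 and 2500 bases and 2 of 12 longer ones did), while 9.96% of other genes under 1000 bases passed. The called members had SDs within groups of 0.263 or less, and 27 members in all were at or under that value. Without the 3 libraries that stood apart the median member moved from 0.01 to -0.04, with 26 members above and 77 below 0, and 5 of 103 passed against 13% of all genes. With the first principal component of the other genes as a covariate, an alternative chosen after the data were seen, 29 members passed against 21.1% of all genes, 3 higher and 26 lower, with a median of -0.06. With the mean level of the cardiomyocyte markers as a covariate the split turned: 87 members were called higher and 4 lower, the median was 0.36 and 48.2% of all genes passed.

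**Figure D3:**
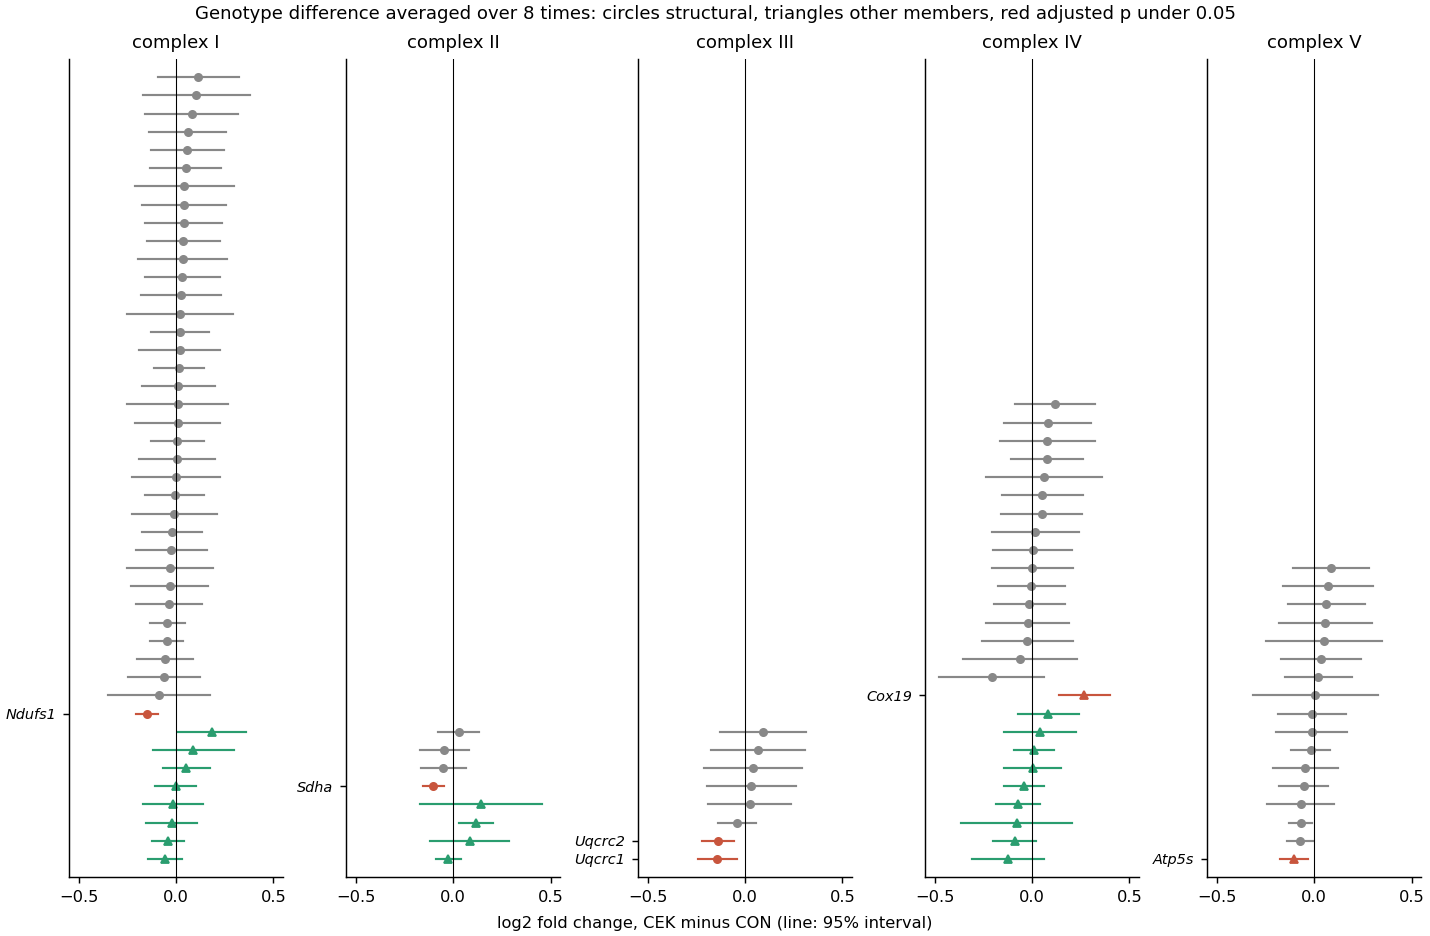
Log2 fold change, CEK minus CON, averaged over 8 times, for each member by complex, with its 95% interval. Circles are structural subunits, triangles the other members, and red marks the 6 with an adjusted p under 0.05, which are named. The points scatter around 0, between -0.21 and 0.27.

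Promoter windows are shown for the members that passed a test and have one, since these are the genes a reader would examine for sites of E4BP4 or of the known regulators of respiratory genes. RefSeq windows (GRCm38.p6, 250 bases before to 50 after a gene's start) were found for 83 of 103 members, and none was found for Ndufs1, Uqcrc2 or Atp5s. Capitals mark matches, on either strand, to the motifs searched: D-box forms TTACGTAA and TTATGTAA, the palindromic site of nuclear respiratory factor 1 (NRF1) in its exact form or with 1 free base (which includes the exact form), the ERR site TCAAGGTCA, the GABP site CCGGAAGT and the E-box CACGTG. Cox7b is added as the only member window with a D-box form.
Sdha, chr13:74350191-74350490, minus strand: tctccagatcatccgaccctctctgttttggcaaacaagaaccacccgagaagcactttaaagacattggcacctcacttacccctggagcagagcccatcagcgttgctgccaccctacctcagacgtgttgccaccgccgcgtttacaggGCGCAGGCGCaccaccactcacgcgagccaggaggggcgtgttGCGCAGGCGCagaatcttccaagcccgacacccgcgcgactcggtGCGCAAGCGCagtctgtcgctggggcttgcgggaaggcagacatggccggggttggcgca
Uqcrc1, chr9:108936398-108936697, plus strand: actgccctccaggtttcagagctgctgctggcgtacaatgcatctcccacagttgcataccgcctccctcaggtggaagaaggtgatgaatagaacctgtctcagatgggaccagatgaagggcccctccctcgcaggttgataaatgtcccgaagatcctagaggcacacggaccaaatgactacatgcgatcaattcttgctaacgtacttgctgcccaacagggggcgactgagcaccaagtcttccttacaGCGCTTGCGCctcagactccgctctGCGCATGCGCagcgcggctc
Cox19, chr5:139345117-139345416, minus strand: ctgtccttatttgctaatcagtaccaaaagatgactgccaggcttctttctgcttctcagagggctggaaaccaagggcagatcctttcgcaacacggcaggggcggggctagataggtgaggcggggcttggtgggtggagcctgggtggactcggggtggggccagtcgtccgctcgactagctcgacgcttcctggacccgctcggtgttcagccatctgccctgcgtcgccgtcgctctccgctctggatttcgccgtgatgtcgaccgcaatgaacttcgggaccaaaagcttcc
Ndufaf4, chr4:24897833-24898132, plus strand: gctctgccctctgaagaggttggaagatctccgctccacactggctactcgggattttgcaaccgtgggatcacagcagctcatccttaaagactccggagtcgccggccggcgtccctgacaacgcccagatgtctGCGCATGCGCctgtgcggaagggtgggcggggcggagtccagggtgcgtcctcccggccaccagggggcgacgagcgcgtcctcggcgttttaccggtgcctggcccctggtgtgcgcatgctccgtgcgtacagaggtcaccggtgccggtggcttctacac
Cox10, chr11:64079423-64079722, minus strand: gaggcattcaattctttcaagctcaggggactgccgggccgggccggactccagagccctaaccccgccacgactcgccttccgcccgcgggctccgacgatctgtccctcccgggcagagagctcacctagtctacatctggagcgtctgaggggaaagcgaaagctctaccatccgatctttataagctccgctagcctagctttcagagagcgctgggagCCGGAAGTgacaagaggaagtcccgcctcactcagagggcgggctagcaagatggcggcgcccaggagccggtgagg
Cox11, chr11:90637934-90638233, plus strand: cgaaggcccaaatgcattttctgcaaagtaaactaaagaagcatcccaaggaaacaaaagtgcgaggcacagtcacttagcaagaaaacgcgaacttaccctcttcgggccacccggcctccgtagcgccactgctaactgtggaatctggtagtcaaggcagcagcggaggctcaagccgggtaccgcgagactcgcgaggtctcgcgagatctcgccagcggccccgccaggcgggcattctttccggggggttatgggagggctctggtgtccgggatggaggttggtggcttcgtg
Cox7b, chrX:106015450-106015749, plus strand: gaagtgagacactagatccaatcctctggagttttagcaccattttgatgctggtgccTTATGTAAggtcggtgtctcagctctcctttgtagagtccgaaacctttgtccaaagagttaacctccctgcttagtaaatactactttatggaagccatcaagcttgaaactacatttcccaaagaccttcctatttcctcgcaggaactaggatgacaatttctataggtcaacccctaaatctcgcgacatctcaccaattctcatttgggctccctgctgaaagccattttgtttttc

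The NRF1 site with a free base was in 21 of 83 member windows (25.3%) and in 5.19% of the windows of 27025 genes. These 27025 genes were all those with a window, with no filter on expression, while members had passed the CPM threshold. The shares are therefore not from like sets. The Sdha window held 3 matches, that of Uqcrc1 held 2 and that of Ndufaf4 held 1. The exact form was in 7 member windows (8.43%) and in 1.07% of all. The GABP site was in 9 member windows (10.8%, Cox10 among them) against 4.31% of all, and the ERR site in 2 (2.41%) against 0.466%. The E-box, bound by clock activators, was in 5 (6.02%) against 8.09%. The D-box form TTACGTAA was in 0 of 83 against 0.126% of all, and TTATGTAA in 1 (Cox7b) against 1.11%. Cox7b, a small complex IV subunit, had a log2 fold change of -0.01 ± 0.091 (95% interval -0.20 to 0.17, adjusted p = 0.951). A match is a run of letters in this window and no measure of binding.

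Among the core subunits of complex I, Ndufs1, the largest iron-sulfur protein of its NADH-oxidising arm, fell in CEK. The gene lies at chr1:63143596-63176833 on the minus strand (GRCm38). Its CPM ran from 607 over a median of 677 to 769 in CON and from 468 over 630 to 691 in CEK. The ranges overlapped, and the lowest CEK values, 468 and 471, were in the libraries that stood apart. Its log2 fold change was -0.15 ± 0.028 (95% interval -0.21 to -0.09, adjusted p = 6.25e-05), with a lower CEK estimate at 7 of 8 times. Leaving out the 3 libraries gave -0.13 ± 0.023 (adjusted p = 1.67e-05). Genes on either strand overlap 6.16% of its exon bases.

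The core subunits Ndufs3, Ndufs7, Ndufs8, Ndufv1 and Ndufv2 did not pass. Their log2 fold changes ran from -0.04 (Ndufs7) to 0.02 (Ndufs3). None of the 29 accessory subunits passed, 8 of them below and 21 above 0, and none of the 8 assembly factors of complex I passed. In edgeR 0 accessory subunits and 1 assembly factor, Ndufaf2, had an unadjusted p under 0.05. Ndufaf2 had a log2 fold change of 0.19 ± 0.087 with an adjusted p = 0.177, and overlapping genes cover 65.6% of its exon bases.

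In complex II Sdha (chr13:74322254-74350280, minus strand) fell. Its CPM ran from 1549 over a median of 1773 to 1980 in CON and from 1300 over 1684 to 1841 in CEK, so that the ranges overlapped widely. The log2 fold change was -0.10 ± 0.026 (95% interval -0.15 to -0.05, adjusted p = 0.0054), with a lower CEK estimate at 7 of 8 times. It was -0.09 ± 0.025 (adjusted p = 0.00581) without the 3 libraries that stood apart. The other subunits did not pass. Sdhb had a log2 fold change of -0.05 ± 0.063 (adjusted p = 0.733), Sdhc -0.05 ± 0.057 (adjusted p = 0.674) and Sdhd 0.03 ± 0.053 (adjusted p = 0.817). Their CON and CEK medians were 772 and 780 CPM for Sdhb, 559 and 560 CPM for Sdhc and 475 and 482 CPM for Sdhd. Among the assembly factors, Sdhaf3 came nearest to the threshold with 0.12 ± 0.043 (adjusted p = 0.0642).

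In complex III both large core proteins fell, which face the matrix and carry no redox centre. Uqcrc2 (chr7:120635176-120659524, plus strand) ran from 666 over a median of 807 to 879 CPM in CON and from 377 over 747 to 842 CPM in CEK. The lowest CEK values, 377 and 490 CPM, were in the libraries that stood apart, where the gene was 0.64 lower in log2 CPM. Its log2 fold change was -0.14 ± 0.040 (95% interval -0.22 to -0.06, adjusted p = 0.0143), lower in CEK at 8 of 8 times. The change was -0.11 ± 0.024 (adjusted p = 0.000791) without the 3 libraries. Pdzd9 on the other strand overlaps its exons, 19.7% of whose bases are shared, and whether the counts used strand is not stated in the labels.

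Uqcrc1 (chr9:108936633-108949623, plus strand) ran from 1038 over a median of 1401 to 2043 CPM in CON and from 1023 over 1327 to 1749 CPM in CEK. The highest value of each genotype was in a library that stood apart. Its log2 fold change was -0.14 ± 0.050 (95% interval -0.24 to -0.04, adjusted p = 0.0489), lower in CEK at 8 of 8 times. Its call was close to the threshold: it was lost when any 1 of 44 libraries was left out (adjusted p up to 0.0828), and over the alternative settings the adjusted p ran from 6.42e-07 to 0.399, with 0.0509 under a replicate block. With the 3 libraries left out it was -0.15 ± 0.046 (adjusted p = 0.0184). The other 6 members of complex III did not pass, the Rieske iron-sulfur protein Uqcrfs1 among them at -0.04 ± 0.048 (adjusted p = 0.671).

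In complex IV none of the 16 structural subunits passed in the edgeR fit without covariates, and none had an unadjusted p under 0.05. DESeq2 called 1 member higher and 5 lower in all complexes together. Log2 fold changes of the structural subunits ran from -0.21 (Cox7a1) to 0.12 (Cox6a1). The heart isoforms Cox6a2 (-0.02 ± 0.106, adjusted p = 0.941) and Cox8b (0.06 ± 0.149, adjusted p = 0.856) had wide intervals, up to 0.36 for Cox8b. Of the 8 assembly factors only Cox19 passed in this fit. Cox19 is a small cysteine-rich protein that acts in copper delivery to complex IV.

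Cox19 (chr5:139336189-139351418, minus strand) was the 1 member that rose. Its CPM ran from 33.5 over a median of 40.2 to 55.7 in CON and from 34.1 over 46.9 to 89.7 in CEK. The highest CEK values, 80.7 and 89.7 CPM, were in libraries that stood apart, and the ranges overlapped. Its log2 fold change was 0.27 ± 0.065 (95% interval 0.14 to 0.40, adjusted p = 0.00277), higher in CEK at 8 of 8 times. The rise was 0.21 ± 0.054 (adjusted p = 0.00462) without the 3 libraries. Other factors of copper delivery did not pass: Cox17 had a log2 fold change of 0.01 ± 0.051 (adjusted p = 0.932) and Cox11 -0.07 ± 0.056 (adjusted p = 0.481).

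In complex V the catalytic core did not pass, although its abundant subunits had the narrowest intervals of the complex. Atp5b had a median of 5779 CPM in CON and 5608 CPM in CEK, a log2 fold change of -0.07 ± 0.034 (95% interval -0.14 to -0.01, adjusted p = 0.153). Atp5a1 had 4739 and 4471 CPM, a log2 fold change of -0.07 ± 0.029 (95% interval -0.13 to -0.01, adjusted p = 0.115). Both were past an unadjusted p of 0.05. The subunit c genes Atp5g1 (0.02 ± 0.087), Atp5g2 (-0.05 ± 0.083) and Atp5g3 (-0.01 ± 0.090) had adjusted p-values of 0.925, 0.803 and 0.955.

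Atp5s (chr12:69724950-69744660, plus strand), coupling factor B, fell. It ran from 17 over a median of 23.3 to 28.2 CPM in CON and from 17.6 over 22.1 to 25.5 CPM in CEK. Its log2 fold change was -0.11 ± 0.036 (95% interval -0.18 to -0.03, adjusted p = 0.0424), lower in CEK at 7 of 8 times. The call was lost without the 3 libraries (-0.10 ± 0.036, adjusted p = 0.0665) and when any 1 of 42 libraries was left out (adjusted p up to 0.0765). Over the alternative settings its adjusted p ran from 0.0105 to 0.315.

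**Figure D4:**
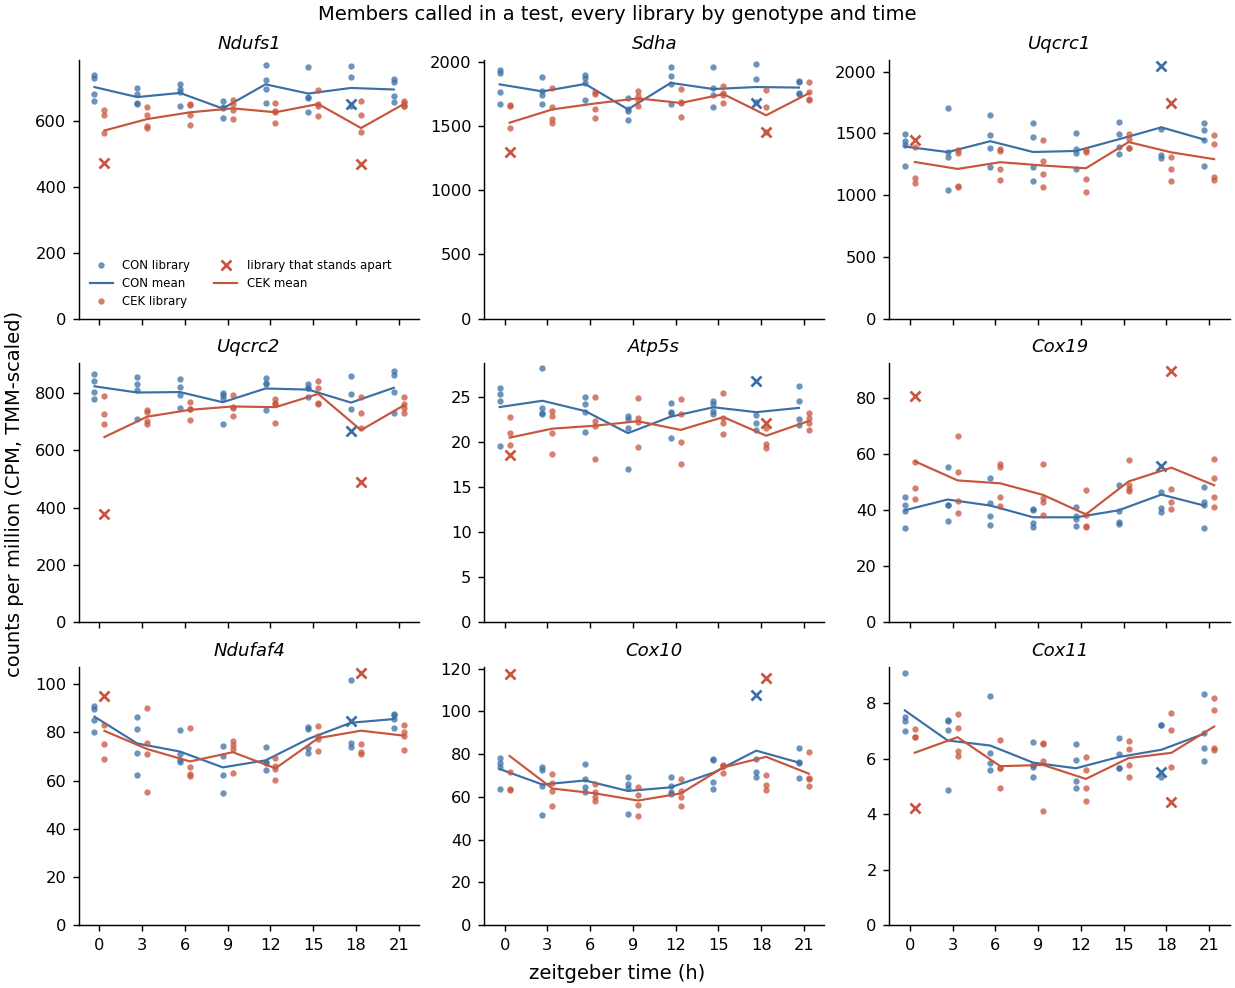
CPM of the 9 members that passed a test, every library by zeitgeber time, with the group means as lines. Crosses are the 3 libraries that stood apart. CON lies above CEK at most times for Ndufs1, Sdha, Uqcrc1 and Uqcrc2, with a widest gap for Ndufs1 at ZT0, and Cox19 lies higher in CEK at all 8 times.

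At single times 1 member passed. Ndufs1 at ZT0 had 740, 660, 728 and 679 CPM in the 4 CON libraries and 562, 616, 631 and 471 CPM in the 4 CEK libraries, and the groups did not overlap. The log2 fold change was -0.30 ± 0.078 (adjusted p = 0.0347), where 1.24% of all genes passed. The last of the CEK values belongs to a library that stood apart. Without it alone the change was -0.22 (adjusted p = 0.245). The call was also lost without CON replicate 1 (adjusted p = 0.151), CON replicate 3 (adjusted p = 0.143), CEK replicate 1 (adjusted p = 0.0946) or CON replicate 4 (adjusted p = 0.0522) of that time. Without all 3 it was -0.22 (adjusted p = 0.11), and over the alternative settings the adjusted p ran from 0.00439 to 0.657. Sdha at ZT0 came nearest after it with -0.26 ± 0.075 (adjusted p = 0.0695). At ZT3, ZT6, ZT9, ZT12, ZT15, ZT18 and ZT21 edgeR called 0 members, where 0.7, 0.189, 0.341, 0.11, 0.11, 0.201 and 0.146% of all genes passed. At these times 0, 0, 0, 1, 0, 2 and 0 members had an unadjusted p under 0.05, and DESeq2 called 1 member, lower in CEK, at ZT18 and 0 at the other 6 times.

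The median member changed sign between times, and leaving out the 3 libraries that stood apart turned its sign at ZT0 only. At ZT0 it was 0.26 higher in CEK, with 83 members above and 20 below 0. The ZT0 median without the 3 libraries was -0.15, with 8 above and 95 below 0. At ZT15 it was 0.17 with 95 members above 0, and it was 0.17 without the 3 libraries as well. With the first principal component of the other genes as a covariate the ZT15 median was 0.02, with 62 members above and 41 below 0, and with the cardiomyocyte score it was 0.45. At ZT21 the median was -0.10 with 96 members below 0, and it was -0.10 without the 3 libraries as well. It was -0.24 with voom, -0.04 with the principal component and turned to 0.19 with the cardiomyocyte score. The medians of all genes were 0.02 at ZT0 and -0.01 at ZT15. The test of the genotype by time interaction called 0 members in edgeR (0 at an unadjusted p under 0.05, and 0 in DESeq2), where 0.00609% of all genes passed.

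The median structural subunit of a library, in log2 CPM, had a mean of 8.30 ± 0.231 (SD, n = 4) at ZT0 in CON and 8.45 ± 0.772 in CEK. At ZT12 the means were 8.16 ± 0.153 and 8.03 ± 0.567, and at ZT18 they were 8.67 ± 0.654 and 8.60 ± 0.491. At ZT15 the CEK libraries lay close together at 8.61 ± 0.0721, above the CON mean of 8.35 ± 0.254. Without the libraries that stood apart the CEK mean at ZT0 was 8.11 ± 0.421 (n = 3), and at ZT18 the means were 8.36 ± 0.245 in CON and 8.36 ± 0.0718 in CEK (n = 3 each). Complex II varied least: in CON its means ran from 9.25 ± 0.289 at ZT9 to 9.55 ± 0.399 at ZT18, whereas in complex IV they ran from 8.33 ± 0.615 to 8.99 ± 0.754 at the same times. Differences between times were of the size of the SD within groups, and no p is given for a median over members.

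**Figure D5:**
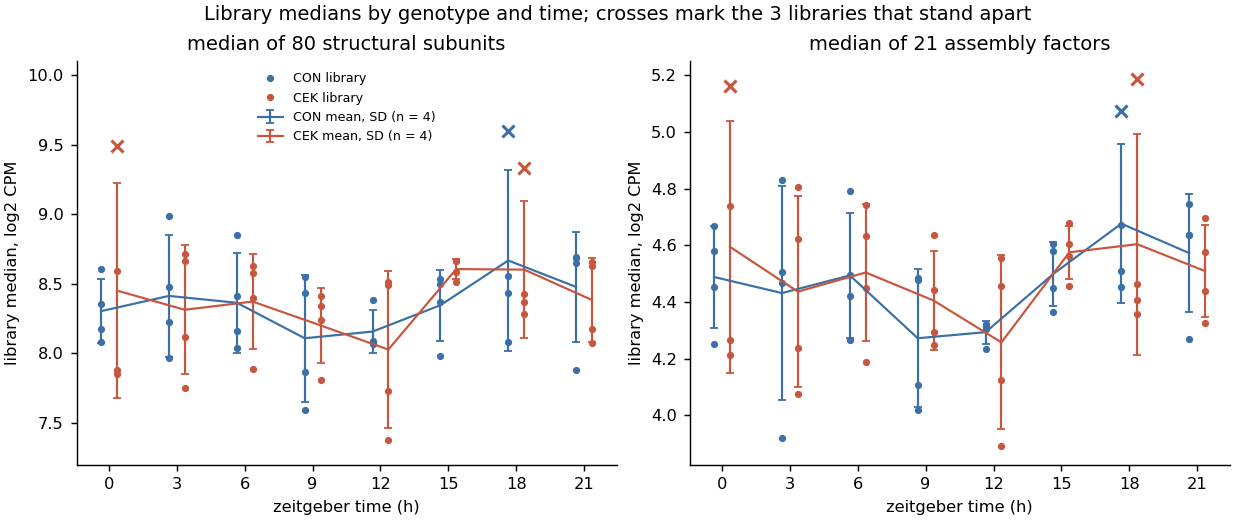
Median log2 CPM of the 80 structural subunits (left) and the 21 assembly factors (right) in every library by zeitgeber time. Lines join group means and bars are SDs (n = 4), and crosses are the 3 libraries that stood apart. The crosses lie above all other libraries of their group.

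Rhythms over 24 h passed for few members. In CON 2 of 103 passed the test of cosine and sine terms against 14.6% of all genes tested, and in CEK 2 passed against 15.6%. All 4 calls were on assembly factors, and 0 structural subunits passed in edgeR in either genotype (1 had an unadjusted p under 0.05 in CON and 0 in CEK). Over all complexes DESeq2 called 3 members in CON and 2 in CEK. The median amplitude, from mean to peak, was 0.16 log2 over members in CON and 0.17 in CEK, above the 0.12 of all genes in both. A fitted amplitude cannot fall under 0 and grows with spread. The spread within groups was wider among members (median SD 0.38 against 0.26 log2 CPM), so these medians do not compare rhythms. With the first principal component of the other genes as a covariate the members' medians were 0.04 in CON and 0.03 in CEK.

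Ndufaf4, an assembly factor of the membrane arm of complex I (chr4:24898083-24905001, plus strand), passed in both genotypes. In CON its mean CPM was 86.5 ± 4.83 (SD, n = 4) at ZT0, 65.5 ± 8.57 at ZT9 and 85.5 ± 2.73 at ZT21. In CEK the values were 80.6 ± 11.2, 71.8 ± 5.94 and 78.7 ± 4.36, with the lowest mean of 65.1 ± 3.80 at ZT12. Its amplitude was 0.20 ± 0.039 log2 in CON, with a peak at ZT21.2 and an adjusted p = 0.000762. In CEK it was 0.13 ± 0.039 with a peak at ZT20.6 and an adjusted p = 0.0429. Without the 3 libraries the CON call held (adjusted p = 0.000252) and the CEK call did not (adjusted p = 0.195). Over the alternative settings the adjusted p in CEK ran from 0.00446 to 0.195, and the call was lost when any 1 of 28 libraries was left out (adjusted p up to 0.115).

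Cox10, which makes the farnesylated haem from which the haem of complex IV is formed (chr11:63962627-64079468, minus strand), passed in CEK. Its means there were 79.1 ± 26 CPM at ZT0, 58.3 ± 5.80 at ZT9 and 78.7 ± 24.9 at ZT18. The libraries that stood apart held 118 CPM at ZT0 and 116 CPM at ZT18, the highest of their groups. The amplitude was 0.20 ± 0.050 log2 in CEK (peak ZT20.0, adjusted p = 0.00769) and 0.15 ± 0.050 in CON (peak ZT19.9, adjusted p = 0.0686). Without the 3 libraries the adjusted p was 0.0185 in CEK and 0.0214 in CON. Cox15, the enzyme of the next step to haem A, did not pass in either genotype (adjusted p = 0.872 in CON and adjusted p = 0.431 in CEK).

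Cox11, which acts in the insertion of copper into complex IV (chr11:90638173-90644931, plus strand), passed in CON. Its means ran from 7.73 ± 0.913 CPM at ZT0 to 5.65 ± 0.722 CPM at ZT12 (n = 4 each). The amplitude was 0.18 ± 0.053 log2 with a peak at ZT23.7 (adjusted p = 0.0436), and in CEK it was 0.16 ± 0.054 (adjusted p = 0.0898). With the 3 libraries left out Cox11 passed in both genotypes (adjusted p = 0.0137 in CON and adjusted p = 0.00702 in CEK). The call in CON was lost when any 1 of 14 libraries was left out (adjusted p up to 0.119). Tom1l1 on the other strand overlaps 48.3% of its exon bases, so reads of the 2 genes may be mixed.

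A rhythm that passed in one genotype was not shown to differ from the other. The test of the difference in rhythm called 0 members in edgeR (0 at an unadjusted p under 0.05, and 0 in DESeq2), where 0.00609% of all genes passed. Fitted peaks of 97 members in CON and 83 in CEK fell between ZT18 and ZT24, nearly all without a call. Without the 3 libraries, of which 2 were sampled at ZT18 and 1 at ZT0, the counts were 95 in CON and 47 in CEK. The median amplitude was then 0.10 in CON and 0.06 in CEK.

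Other genes of the pathway were read, with all 64 libraries, from lists made with earlier results of these data known. The 12 tested protein genes of the mitochondrial genome had no call in edgeR (0 with an unadjusted p under 0.05), with log2 fold changes such as -0.08 ± 0.067 for mt-Co1 and -0.07 ± 0.071 for mt-Cytb. Several of them are barely counted in this table (mt-Co2 had a mean of 6.17 CPM and mt-Co1 one of 80519 CPM), and reads with more than 1 location made a median of 33.3% of all. Of 19 genes for electron carriers and their makers, 1 was higher and 7 were lower in CEK (42.1%, against 12% of all genes tested). The spread within groups was narrower in this list (median SD 0.18 against 0.26 log2 CPM for all genes tested). A narrower spread makes calls easier, and these shares make no allowance for it. Etfdh, which passes electrons from fatty acid oxidation to coenzyme Q, fell by 0.20 ± 0.034 on the log2 scale (adjusted p = 1.51e-05). The coenzyme Q synthesis genes Coq3, Coq8a and Coq5 fell by 0.18 ± 0.032, 0.14 ± 0.026 and 0.16 ± 0.030.

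Of 31 assembly factors outside the naming rule, only Uqcc1 for complex III passed (-0.12 ± 0.037, adjusted p = 0.021), 3.23% against 12% of all genes tested. Of 22 regulators of mitochondrial biogenesis, only Perm1, a muscle regulator, passed (-0.17 ± 0.039, adjusted p = 0.00218), 4.55% against 12% of all genes tested. In this list 20 of the 22 estimates were below 0, against 8251 of 16417 over all genes tested. These signs come from genes that share libraries, and a joint fall was not tested. Of 17 genes for energy export and shuttles, 1 was higher and 3 were lower (23.5%, against 12% of all genes tested). The spread within groups was narrower in this list too (median SD 0.17 against 0.26 log2 CPM for all genes tested). The ADP/ATP carrier Slc25a5 rose by 0.15 ± 0.048, and the aspartate-glutamate carriers Slc25a13 and Slc25a12 fell by 0.16 ± 0.034 and 0.12 ± 0.036. Got1, an aminotransferase of the same shuttle, fell by 0.11 ± 0.026.

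Markers of cell types moved with genotype beside these results. For comparison, 6.69% of all genes tested were called higher and 5.3% lower in CEK. Of 8 cardiomyocyte markers 2 were lower in CEK and all 8 estimates were below 0, with a median log2 fold change of -0.08. Summed cardiomyocyte markers ran from 55663 to 74380 CPM in CON and from 54229 to 75752 CPM in CEK. Of 8 macrophage and myeloid markers 7 were higher (sum 189 to 420 CPM, median 235, in CON and 214 to 533 CPM, median 305, in CEK). Of 8 atrial markers 6 were lower (median sums of 1073 and 579 CPM), of 8 fibroblast markers 2 were higher (1075 and 1194 CPM) and of 8 endothelial markers 2 were lower (967 and 934 CPM). Of 5 tested skeletal muscle markers 1, Tnnt3, was higher, with a mean of 0.624 CPM. The list's median sums (935 and 918 CPM) were nearly all Ckm (mean 921 CPM), which cardiomyocytes also express. The adipocyte markers (30.7 and 32 CPM) and red blood cell markers (530 and 526 CPM) had 0 calls in edgeR (2 and 0 with an unadjusted p under 0.05). With the mean level of the atrial markers as a covariate 7 of 103 members passed against 11.9% of all genes, with a median of 0.02. The fit with the cardiomyocyte markers is given above, and the other marker lists were not used as covariates. These fits do not measure what part the marker differences have in the changes of the members, and that part was not tested.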

How the data were processed

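Per the submitters' processing notes, reads were converted with bcl2fastq 2.18.0.12, aligned to GRCm38 with STAR 2.6.1d and counted with HTSeq 0.11.1. The deposited values are raw counts per gene. The labels do not state the annotation release or the strand setting. Medians of 3.56% of reads had no feature, 3.20% were ambiguous and 33.3% had more than 1 location, and these rows were left out. Gene models came from GENCODE M21 (48435 rows matched). In R 4.3.3, edgeR 4.0.16 fitted 16 group means with TMM scaling to genes passing filterByExpr (minimum count 10, minimum total 15), and quasi-likelihood tests were adjusted by Benjamini-Hochberg over all genes at 0.05. Rhythms used cosine and sine terms of 24 h per genotype. Log2 CPM used a prior count of 2. SEs are from the fitted fold change and its F. The scripts were tested on simulated data. Alternatives used DESeq2 1.42.0 and voom in limma 3.58.1, other scalings, filters and covariates. Replicates differed by more than sampling noise (lowest ratio 4.63 over 96 pairs). P-values measure the spread between labelled replicates. Members and gene lists were chosen with earlier results of these data known. Genes were named by rule: extremes of level per complex, isoform pairs, members past a threshold, and the smallest p-values of the other lists. Members named although they did not pass were chosen after their values were seen.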

Additional observations from a re-analysis of the deposited data

Results flagged for a closer look

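In 8 of 160 groups of 4 libraries examined, 1 library lay far from the other 3, with a gap above 0.829 of the group's range, and chance gives about 1 in 20 groups, the same share. The median log2 CPM of the structural subunits was 9.333 in CEK at ZT18 replicate 1 (the nearest other library of the group was at 8.424), 8.386 in CON at ZT12 replicate 4 (nearest 8.090) and 7.882 in CON at ZT21 replicate 1 (nearest 8.649). Uqcrc2 was at 9.438 log2 CPM in CON at ZT9 replicate 2 (nearest 9.616). Atp5s was at 4.823 in CON at ZT3 replicate 1 (nearest 4.578). Ndufaf4 was at 6.713 in CEK at ZT18 replicate 1 (nearest 6.233). Cox11 was at 2.098 in CEK at ZT0 replicate 4 (nearest 2.777) and at 2.302 in CON at ZT3 replicate 2 (nearest 2.825). Of these libraries, CEK at ZT18 replicate 1 and CEK at ZT0 replicate 4 also stood apart on the first principal component of all genes.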

How the results depend on the processing

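For the averaged genotype difference, against 1 member higher and 5 lower, voom called 2 and 9, the cardiomyocyte marker score as a covariate 87 higher and 4 lower, the first principal component of the other genes (added after seeing the data) 3 and 26, and no filter on low counts 1 lower. Uqcrc1 turned to 0.046 (adjusted p = 0.399) with the cardiomyocyte score. At ZT0, against 1 lower, DESeq2 called 2, a mean CPM of 1 or more 2, voom 3, the cardiomyocyte score 4 (and 47 higher) and the principal component 4 (and 1 higher). No filter, the mitochondrial share, the 8 libraries of ZT0 alone and leaving out the 3 libraries gave 0. At ZT18, against 0 lower, DESeq2 and the principal component each gave 1. For rhythms, against 2 in CON, no filter gave 1, voom 20, the principal component 4 and 8 levels of time 0. Against 2 in CEK, the principal component gave 4, 8 levels of time 0, and no filter, the submitter number, the mitochondrial share and the 32 CEK libraries alone each gave 1. Leaving out 1 library in turn gave 1 to 2 members higher and 3 to 5 lower on average, 0 to 3 lower at ZT0, 1 to 4 rhythms in CON and 1 to 2 in CEK, and 0 to 0 for the other counts. Without the mitochondrial genome in the totals, structural medians were 8.22 (complex I), 9.76 (II), 9.30 (III) and 9.79 (V) log2 CPM. Smaller totals by themselves raise every log2 CPM, and this holds for complex IV too, whose value is not listed. For the other changes listed here the cause was not tested.

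Replicate numbers were not treated as pairs, since no label says what they share and not every pair correlated above 0.1. Of the pairs, 20 of 32 same-numbered ones correlated above 0.1 (-0.431 to 0.522), and 17 of 32 correlated best with their own number, where 8 of 32 would if numbers meant nothing, a hint from the data and not the design. The replicate block gave 3 members lower on average in place of 5, with Uqcrc1 at an adjusted p of 0.0509 and Atp5s at 0.0501.

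Depth ran from 7.71 M to 45.6 M counts, and the median SE of a member's averaged difference was 0.0931 log2, against 0.026 for Sdha, so that a difference of the size called for Sdha was not detectable for most members. Strand, overlapping genes in 40 members and bulk composition also limit single values.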

Other observations

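Across all members, transcript length had a Spearman's rho of -0.46 with the averaged log2 fold change between genotypes, a description over genes that share libraries. The median fold change was 0.04 in members under 1000 bases, -0.02 between 1000 and 2500 bases and -0.05 at 2500 bases or more, and other genes gave 0.06, 0.01 and -0.02 in the same order.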
